A study of Mus musculus with 8 samples.

Results

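The odorant receptor (OR) genes numbered Olfr1417 to Olfr1505 lie on mouse chromosome 19, the chromosome that also carries Emx2. They were chosen by symbol alone: a row of the array table belongs to the set if it has a single gene symbol within that range. The rule found 56 rows, each for a different protein-coding OR gene, among 1035 rows with an OR symbol and 23410 rows with any gene symbol. The reference gene table (assembly GRCm38.p6) placed all 56 on chromosome 19. It lists 87 genes in the range, of which 60 are coding and 27 are pseudogenes. The coding genes Olfr1425, Olfr1432, Olfr1437 and Olfr1458 have no row of their own, and 3 further rows stand for several of these ORs at once.

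RNA came from whole olfactory mucosa of mice at postnatal day 1, on a mixed 129 x C57BL/6J background. The Emx2 knockout group was 123Cre:Emx2(fl/fl), with 4 samples. The control littermates were 123Cre:Emx2(fl/+) in replicates 1 and 4 and Emx2(fl/fl), with no Cre, in replicates 2 and 3. The knockout thus shares 1 floxed allele and Cre with the first kind of control and both floxed alleles with the second. The 123Cre transgene is active once an olfactory sensory neuron (OSN) has reached its immature stage, so earlier cells of the lineage and other cell types of the mucosa are not its target. The sample titles carry running numbers. Numbers 1 to 4 are control replicate 1, knockout replicates 1 and 2 and control replicate 2, in that order, and numbers 5 to 8 are control replicates 3 and 4 and knockout replicates 3 and 4. The labels name no litter and no batch, and nothing in them says whether a sample was 1 animal, so p-values reflect only how much these samples varied.

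Each OSN transcribes 1 allele of 1 OR gene, and most OR genes sit in tandem clusters of related sequences. Which gene an OSN expresses depends on enhancers and promoters that carry homeodomain sites, for which Lhx2 and Emx2 are known binding proteins, and on Ebf sites. ORs are G protein-coupled receptors that detect odorants in the cilia and also guide the axon to its glomerulus. In RNA from whole mucosa, fewer OSNs that express a receptor and less receptor mRNA per OSN cannot be told apart.

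In the reference order, the chromosome 19 ORs formed 4 runs that other protein-coding genes separate. The first run, between Stx3 and Patl1, holds Olfr1417 to Olfr1420, and all 4 genes were measured. The second, between Osbp and Pfpl, ends with Olfr1441 and gave 10 members. The third is the pair Olfr1442 and Olfr1443 between Glyat and Keg1. The fourth, between Lpxn and Tle4, spans Olfr1444 to Olfr1505 and gave 40 members. The MOR names among the synonyms of the reference group ORs by sequence relatedness. By these names 30 members belong to MOR202, 8 to MOR266, 5 to MOR239, 4 to MOR212, 3 each to MOR211 and MOR214, 2 to MOR215 and 1 to MOR127. MOR202 genes make up both genes of the third run and 28 members of the fourth. MOR266 genes stand in separate places, with 4 in the first run and 4 (Olfr1490, Olfr1491, Olfr1494 and Olfr1495) in the fourth. Grouping by MOR family was chosen after the values were seen.

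Because Emx2 is a homeodomain protein, the sequence around the start of these genes was searched for the core letters of a homeodomain site. RefSeq windows (GRCm38.p6) of 250 bases before and 50 after the annotated gene start were found for 54 of the 56 members. In 47 of them the gene model begins at the start codon. The first 250 bases of these windows lie upstream of the coding sequence and can be far from the true promoter. The last 50 lie within the coding sequence. The windows counted below thus include sites in coding sequence, such as TAATGA in Olfr1446 and Olfr1447 and TATAAA in Olfr1423. Both strands were read for TAATTA and TAATGA. The sites below are those of the members at an unadjusted p under 0.01 in the comparison that follows and of the MOR266 genes, each with its flanks and with the motif in capitals (TCATTA is TAATGA read from the other strand):
Olfr1424, chr19:12059892-12059915, minus strand: ttgatcattTAATTAactgcaata
Olfr1424, chr19:12059834-12059857, minus strand: ctacagccaTAATGAggagcttct
Olfr1424, chr19:12059983-12060000, minus strand: gtgTCATTActtaatgtg
Olfr1459, chr19:13146649-13146672, minus strand: taactgacaTCATTAatggagaac
Olfr1495, chr19:13768164-13768187, plus strand: ctgcccaatTAATGAaggcgtcca
Olfr1420, chr19:11895953-11895976, plus strand: agatatattTAATGAcagatacct
Olfr1418, chr19:11856035-11856058, minus strand: ctatgacaaTAATGAcagagtaaa
Olfr1418, chr19:11856020-11856043, minus strand: cagagtaaaTAATGAcaagtgtcc

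The Olfr1459 site directly precedes the start codon of the gene. Neither motif was found in the window of Olfr1419, nor in those of Olfr1417, Olfr1490, Olfr1491 and Olfr1494, which says only that these letters are not in these windows. TAATTA was present in 12 of 54 windows (22.2%), against 18.3% of 894 windows of other OR genes and 5.29% of all 32851 windows. TAATGA was present in 18 of 54 (33.3%), against 28.5% and 9.78%. One or the other motif was in 24 windows (44.4%, against 40.6% of other OR windows), and they overlapped in 0 of the member windows. The windows of the members were 64.6% A or T, those of other OR genes 63.8% and all windows 46.2%, so the shares of OR genes and of all genes come from different base compositions. An Ebf-like core, CCCNNGGG, was in 1.85% of member windows, 3.13% of other OR windows and 13.7% of all windows. TATAAA was in 31.5%, 41.6% and 13.6% of them in the same order. Among the 8 MOR266 windows, 3 had TAATGA and 0 had TAATTA or TATAAA, whereas TATAAA was in 12 of 28 MOR202 windows (42.9%).

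The levels below are deposited log2 signals, and each difference is knockout minus control on that scale. Emx2 read 10.80, 10.86, 11.00 and 10.72 in control replicates 1 to 4 and 9.80, 9.86, 10.01 and 9.93 in knockout replicates 1 to 4. The groups did not overlap, and the mean fell by 0.94 (adjusted p = 0.0014, limma). Emx2 signal in the whole mucosa was thus reduced to 52.0% of control and not abolished. The mature OSN marker Omp averaged 12.94 ± 0.091 in controls and 12.88 ± 0.061 in knockouts (SD, n = 4 each), so the labelled tissue carried OSN mRNA at high signal in both groups. The array of knockout replicate 2 differed most from the rest, with a mean correlation of 0.978 to them (0.987 to 0.990 for the others) and an estimated array weight of 0.17. It held the lowest of the 8 values in 35 of 56 members (62.5%) and in 66.6% of the other 979 OR rows, so results that rest on it are given without it as well. Signal was low for many members, with 32 of 56 under 7.47, the mean level below which the dimmest 30% of tested rows lie.

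The partial loss of Emx2 mRNA was accompanied by lower signal for a few chromosome 19 ORs, and none of them passed the test over all rows with each array weighted equally. At an adjusted p under 0.05, 0 of 56 members were called by limma, where 0.359% of all tested rows and 0.204% of other OR rows were called. When limma weighted the arrays by their fit, 3 members passed (Olfr1419, Olfr1424 and Olfr1495, beside 0.957% of all rows and 2.35% of other OR rows), and without control replicate 4 Olfr1419 passed (0.231% of all rows and 0% of other OR rows). With the same test, 7 members had an unadjusted p under 0.05, all of them lower in the knockout (6.1% of all rows in either direction, 16% of other OR rows). At an unadjusted p under 0.01 by limma, 4 members were lower (7.14% of 56), beside 1.3% of all rows and 3.78% of other OR rows. They were Olfr1419, Olfr1424, Olfr1459 and Olfr1495. The study used this p for ORs, with t tests and a false discovery rate given beside it. With the methods' t-test on the deposited values, Olfr1459 did not reach that threshold. No member was higher at that threshold, where 0.436% of all rows and 0.817% of other OR rows were. Every knockout sample lay below every control for 6 members (10.7% of 56), the same 4 genes with Olfr1490 and Olfr1491, beside 2.54% of all rows and 5.01% of other OR rows. The opposite arrangement was found for 0 members, 1.98% of all rows and 1.43% of other OR rows.

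Olfr1419, of the first run, had the smallest adjusted p among the members. It read 8.38, 8.56, 8.63 and 8.24 in the controls and 7.86, 7.93, 7.97 and 7.82 in the knockouts. The knockouts sat close together, and the lowest control was above all of them. The difference was -0.56 (SE 0.096, adjusted p = 0.073), a 32.0% lower signal, and was -0.57 without knockout replicate 2. Its neighbour Olfr1420 read 8.06, 7.67, 8.41 and 8.37 in the controls and 7.37, 7.13, 7.81 and 7.88 in the knockouts. Its groups overlapped, because control replicate 2 lay under knockout replicates 3 and 4. The difference of Olfr1420 was -0.58 (SE 0.212, adjusted p = 0.749) and -0.44 without knockout replicate 2. Both groups of Olfr1420 were lower in samples 1 to 4 than in samples 5 to 8, and the difference was -0.61 within the former and -0.54 within the latter. The other neighbour, Olfr1418, differed by -0.10 with a 95% interval from -0.35 to 0.16, and Olfr1417 by -0.18, from -0.38 to 0.01. Without knockout replicate 2 these were -0.09 and -0.16.

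Olfr1424, a MOR239 gene of the second run, had the most negative difference of the 56. It read 7.25, 6.64, 7.03 and 7.32 in the controls and 6.18, 5.92, 6.51 and 6.44 in the knockouts. The highest knockout stayed under the lowest control, control replicate 2. The difference was -0.80 (SE 0.177, adjusted p = 0.22), a 42.4% lower signal, and -0.68 without knockout replicate 2. Both groups of Olfr1424 lay under the dim level, where a log2 difference can understate a change in mRNA. A row shared by Olfr1424, Olfr1425 and Olfr1426 differed by -0.24 (95% interval -0.70 to 0.21). The nearest measured neighbours had differences nearer 0. Olfr1423 differed by -0.01 (-0.30 to 0.29) and Olfr1426 by -0.15 (-0.62 to 0.31), and without knockout replicate 2 they differed by 0.11 and 0.03.

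Olfr1459, a MOR202 gene of the fourth run, read 8.66, 8.93, 9.25 and 8.63 in the controls and 8.38, 7.88, 8.16 and 8.49 in the knockouts. The gap between the groups was narrow, from 8.49 in knockout replicate 4 to 8.63 in control replicate 4. The difference was -0.64 (SE 0.172, adjusted p = 0.419) and -0.52 without knockout replicate 2. This was the least steady of the 4 genes, since its unadjusted p stayed under 0.01 in 4 of 8 fits that left out a sample. Its flanking members Olfr1457 and Olfr1461 differed by -0.28 (-0.71 to 0.15) and -0.12 (-0.68 to 0.44), and by -0.09 and 0.05 without knockout replicate 2.

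Olfr1495, a MOR266 gene near the far end of the fourth run, read 8.11, 7.88, 8.24 and 7.88 in the controls and 7.43, 7.18, 7.55 and 7.64 in the knockouts. All knockouts were lower, with 7.64 against 7.88 at the closest approach. The difference was -0.58 (SE 0.123, adjusted p = 0.19), a 33.0% lower signal, and -0.49 without knockout replicate 2. Next to it, Olfr1494 differed by -0.33 (-0.83 to 0.17) and Olfr1496, the only MOR127 member, by -0.35 (-0.93 to 0.22), and without knockout replicate 2 they differed by -0.31 and -0.21.

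**Figure D1:**
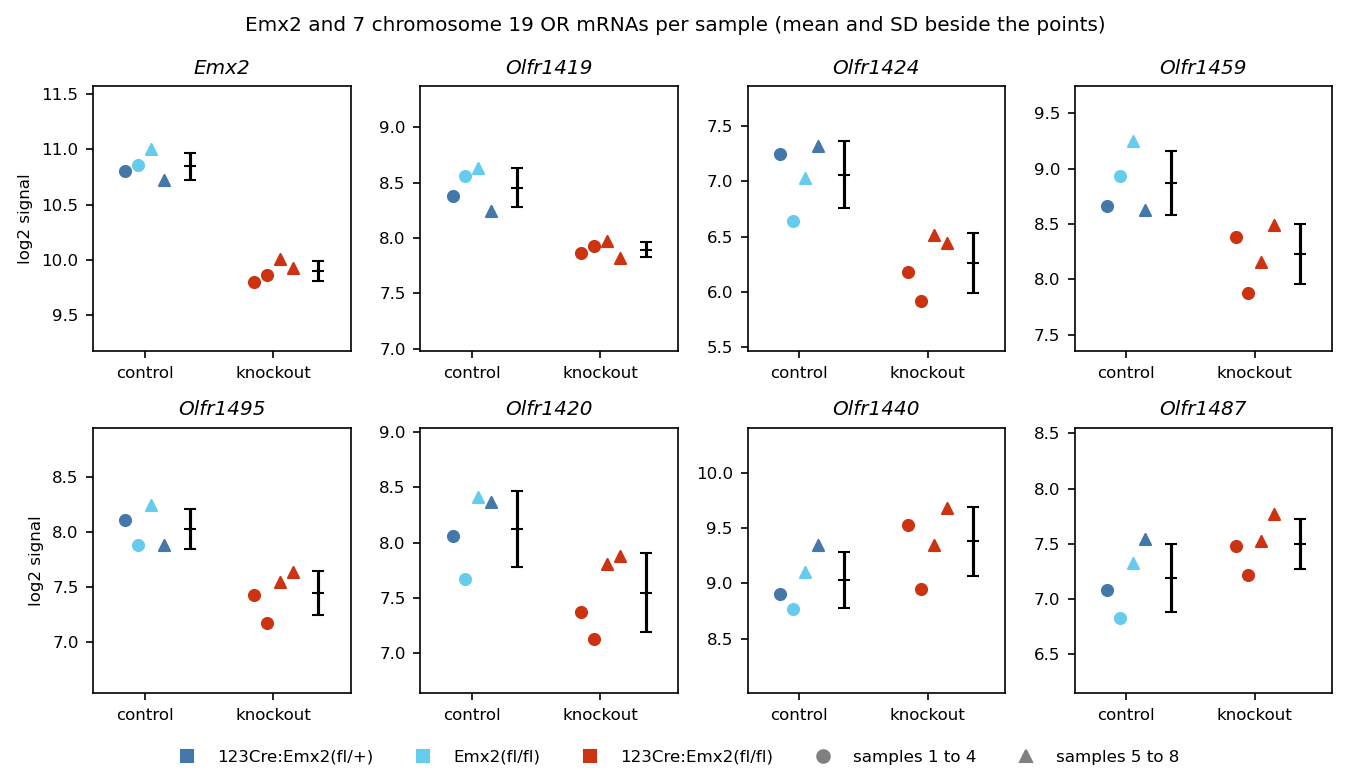
Deposited log2 signal (vertical axis, equal spans) of Emx2 and 7 chromosome 19 ORs in 4 control and 4 knockout samples, coloured by genotype, circles for samples 1 to 4 and triangles for samples 5 to 8, with group mean ± SD drawn to the right. The groups do not overlap for Emx2, Olfr1419, Olfr1424, Olfr1459 and Olfr1495, and they overlap for Olfr1420, Olfr1440 and Olfr1487.

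At the other end of the range, 12 of 56 members had a difference above 0, and none reached an unadjusted p under 0.05 with all 8 samples. Olfr1440, a MOR215 gene of the second run, read 8.90, 8.77, 9.10 and 9.35 in the controls and 9.53, 8.95, 9.35 and 9.68 in the knockouts. Knockout replicate 2 lay among the controls while knockout replicates 1 and 4 were above the highest control and knockout replicate 3 was level with it. The difference was 0.35 (SE 0.175, adjusted p = 0.857), and it was 0.49 without knockout replicate 2. Olfr1487, a MOR202 gene, read 7.08, 6.83, 7.33 and 7.54 in the controls and 7.48, 7.22, 7.53 and 7.77 in the knockouts, with groups that overlapped. Its difference was 0.30 (SE 0.167, adjusted p = 0.892), and 0.40 without knockout replicate 2. The next were Olfr1505 at 0.21, Olfr1427 at 0.19, Olfr1484 at 0.17, Olfr1463 at 0.13 and Olfr1428 at 0.12, each with a 95% interval that included 0. Without knockout replicate 2 these were 0.33, 0.38, 0.40, 0.26 and 0.18. In that fit Olfr1440, Olfr1487 and Olfr1427 had unadjusted p of 0.0088, 0.039 and 0.049 (limma), and 0 members passed at an adjusted p under 0.05. Under 0.01 unadjusted, 1.36% of all rows and 4.39% of other OR rows were higher there.

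Most of the remaining members had small differences with wide intervals, whose median extent to either side was 0.43. Over all 56, 44 differences were below 0 and the median was -0.14, with quartiles of -0.27 and -0.01. The other OR rows had a median of -0.19, with 752 of 979 below 0, and all tested rows a median of 0.00. The mean over the members was 7.33, 7.14, 7.48 and 7.53 in control replicates 1 to 4 and 7.13, 6.87, 7.36 and 7.54 in knockout replicates 1 to 4. Knockout replicate 4 thus had the highest mean and knockout replicate 2 the lowest, and the group means of 7.37 ± 0.18 and 7.23 ± 0.29 (SD, n = 4 each) overlapped. Without knockout replicate 2 the difference of the means changed from -0.15 to -0.03, the median difference from -0.14 to 0.03, and 17 members changed sign. The other OR rows moved likewise, from a median of -0.19 to -0.07. On arrays centred on the OR rows outside the set, an alternative chosen after the data were seen, the median of the members was 0.05 and 24 of 56 lay below 0. Olfr1424 (-0.61) remained at an unadjusted p under 0.01 on that scale, and Olfr1440 (0.53) and Olfr1487 (0.49) were then above 0 at the same threshold. Olfr1419 (-0.37), Olfr1459 (-0.45) and Olfr1495 (-0.39) no longer reached it. Of all rows 0.38% were lower and 0.384% higher there, and of other OR rows 1.74% and 2.04%. That centring moved the median of all tested rows from 0.00 to 0.19.

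**Figure D2:**
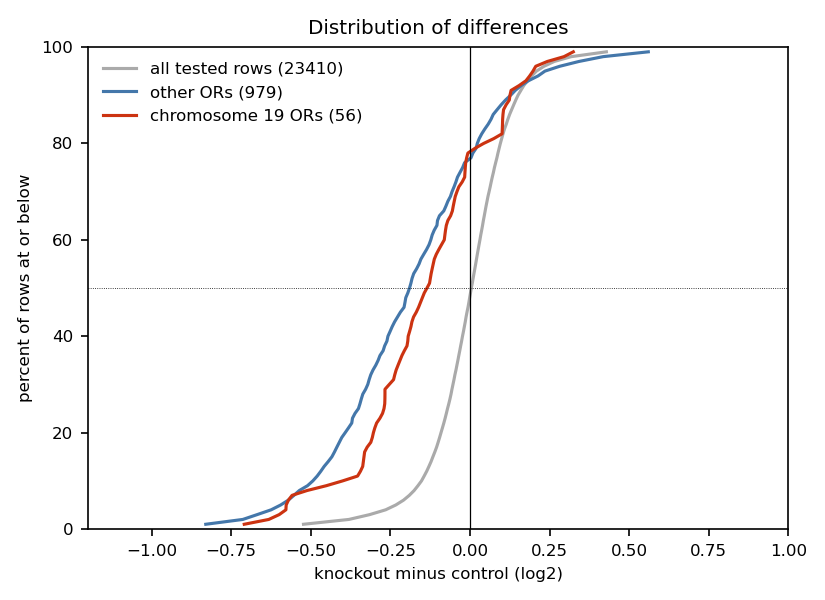
Cumulative percent of rows (vertical axis) at or below a given knockout minus control difference in log2 signal (horizontal axis) for the 56 chromosome 19 ORs, the 979 other OR rows and all tested rows. The members have a median of -0.14 and the other ORs one of -0.19, while all tested rows are centred on 0.00.

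The runs and families differed in how far their members stood from the control. In the first run all 4 members were below 0, with a median of -0.37, and the mean over them read 7.85, 7.81, 8.07 and 7.96 in the controls and 7.62, 7.46, 7.55 and 7.65 in the knockouts. These means did not overlap. In the second run 7 of 10 were below 0 (median -0.09), and the run held both the lowest and the highest difference of the set, Olfr1424 at -0.80 and Olfr1440 at 0.35. In the third run the differences were -0.14 for Olfr1442 and -0.05 for Olfr1443. In the fourth run 31 of 40 were below 0 (median -0.13). Without knockout replicate 2, all 4 members of the first run stayed below 0 (median -0.30), whereas in the second run 4 of 10 were below 0 (median 0.07), in the third 0 of 2 (0.08 and 0.03), and in the fourth 19 of 40 (median 0.04).

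All 8 MOR266 members were below 0, in both places where these genes lie, with a median of -0.37 over the 4 of the first run and -0.31 over the 4 of the fourth. Their differences ran from -0.58 (Olfr1420 and Olfr1495) to -0.10 (Olfr1418), and groups did not overlap for Olfr1419, Olfr1490, Olfr1491 and Olfr1495. Olfr1490 read 7.49, 7.49, 7.74 and 7.55 in the controls and 7.22, 7.09, 7.32 and 7.46 in the knockouts, a difference of -0.30 (SE 0.098, adjusted p = 0.68). Olfr1491 read 7.99, 8.06, 8.09 and 8.21 in the controls and 7.89, 7.58, 7.93 and 7.89 in the knockouts, a difference of -0.27 (SE 0.095, adjusted p = 0.715). In both genes the highest knockout lay just under the lowest control. The mean over the 8 MOR266 genes was 7.77, 7.71, 7.92 and 7.92 in the controls and 7.44, 7.32, 7.51 and 7.61 in the knockouts. Its difference was -0.36, and -0.31 without knockout replicate 2. The other 48 members had a median of -0.11, with 36 below 0, and a median of 0.05 without that sample. With OR-centred arrays 6 of the 8 MOR266 genes stayed below 0 (median -0.13), with Olfr1418 at 0.09 and Olfr1417 at 0.00. Because the family was singled out after its values were seen, no test was made of its difference from the other members.

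The 30 MOR202 members included 25 below 0, with a median of -0.11. Their mean read 7.29, 7.07, 7.49 and 7.53 in the controls and 7.10, 6.82, 7.38 and 7.62 in the knockouts. These values overlapped, and the difference of -0.12 was 0.02 once knockout replicate 2 was left out. Apart from Olfr1459, the lowest were Olfr1446 at -0.45 (-0.96 to 0.07), Olfr1489 at -0.34 (-0.91 to 0.23) and Olfr1451 at -0.33 (-0.69 to 0.03). Without knockout replicate 2 these were -0.25, -0.14 and -0.36. Olfr1462 and Olfr1465 differed by -0.02 (-0.60 to 0.57) and -0.19 (-0.63 to 0.25), and by 0.10 and -0.01 without knockout replicate 2. In MOR239, Olfr1424 stood alone, with Olfr1423, Olfr1426, Olfr1427 and Olfr1428 between -0.15 and 0.19. All 3 MOR214 genes were below 0 (-0.15, -0.10 and 0.16 for Olfr1431, Olfr1434 and Olfr1436 without knockout replicate 2) and all 3 MOR211 genes (Olfr1499, Olfr1502 and Olfr1505) above 0, each with an interval that included 0. The genes of both families lay under the dim level. Lowest among them were Olfr1502 (mean level 4.52), Olfr1434 (5.38), Olfr1436 (5.39) and Olfr1499 (5.41). The row of Olfr1502 and Olfr1505 differed by -0.02 (-0.50 to 0.46), and the row that joins Olfr1431, Olfr1434, Olfr1436, Olfr1437 and Olfr235 by -0.27 (-0.79 to 0.25). Tandem ORs have closely related copies, so signal may be shared between rows.

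**Figure D3:**
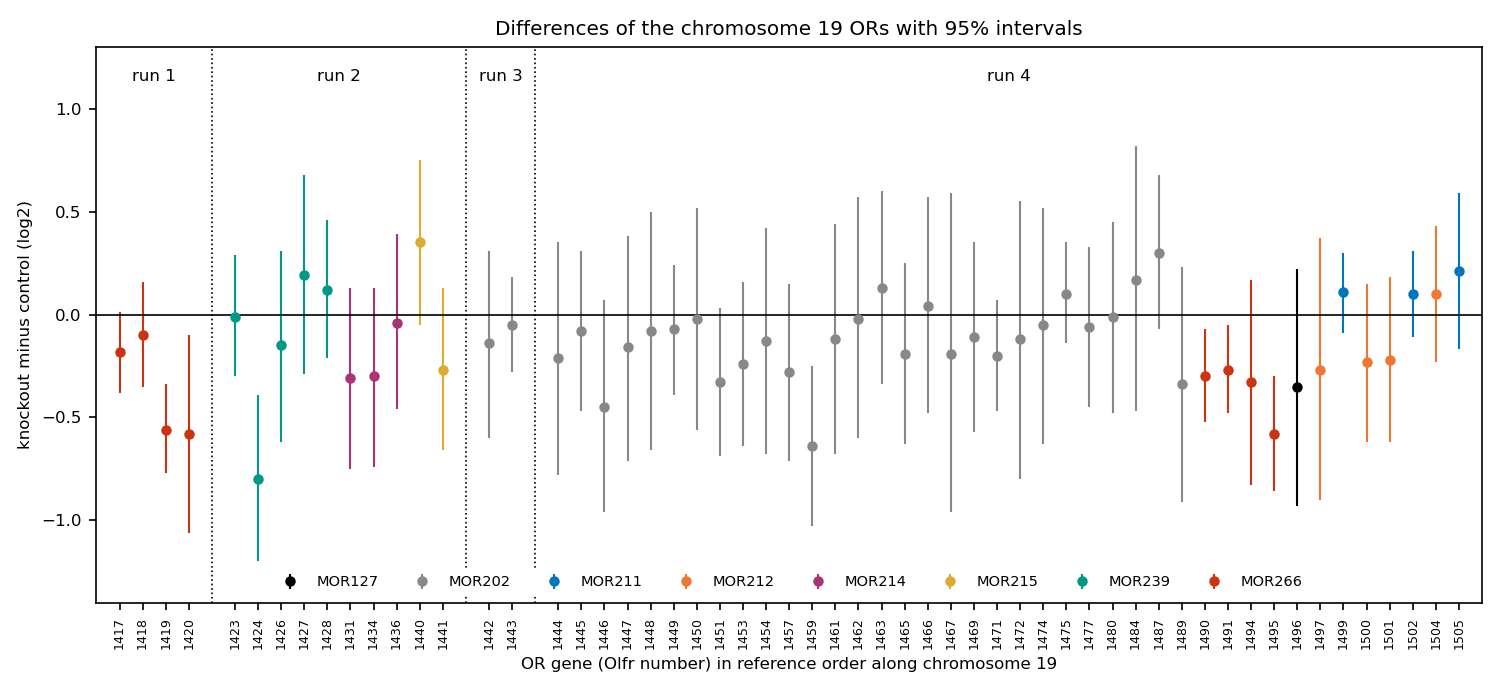
Knockout minus control difference in log2 signal (vertical axis) with its 95% interval for the 56 chromosome 19 ORs in reference order (horizontal axis, not to scale), coloured by MOR family, with dotted lines between the 4 runs. All 8 MOR266 genes lie below 0, in the first run and near the far end of the fourth, and 44 of the 56 points lie below 0.

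The levels of the members moved together across samples. Over 1540 pairs the median Pearson r across the 8 samples was 0.56, with 0.70 among MOR202 pairs, 0.58 among MOR266 pairs and 0.41 between these families. The median r of a member with the mean of the other OR rows was 0.78, with 28 of 56 above 0.8. Olfr1419 (0.27), Olfr1417 (0.32), Olfr1440 (0.39) and Olfr1418 (-0.00) followed that mean less closely. So did Olfr1502 (-0.07), Olfr1475 (0.06), Olfr1428 (0.07), Olfr1499 (0.17), Olfr1451 (0.32) and Olfr1449 (0.34). By contrast, Olfr1420 (0.91) followed that mean. All of these values share the same 8 arrays and include the difference between groups. The spread over all samples was widest for Olfr1467 (SD 0.542), Olfr1424 (0.502), Olfr1472 (0.47), Olfr1497 (0.457) and Olfr1484 (0.453). Of these, Olfr1467 ranged from 6.82 in knockout replicate 2 to 8.42 in control replicate 4, and the groups of every one except Olfr1424 overlapped.

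**Figure D4:**
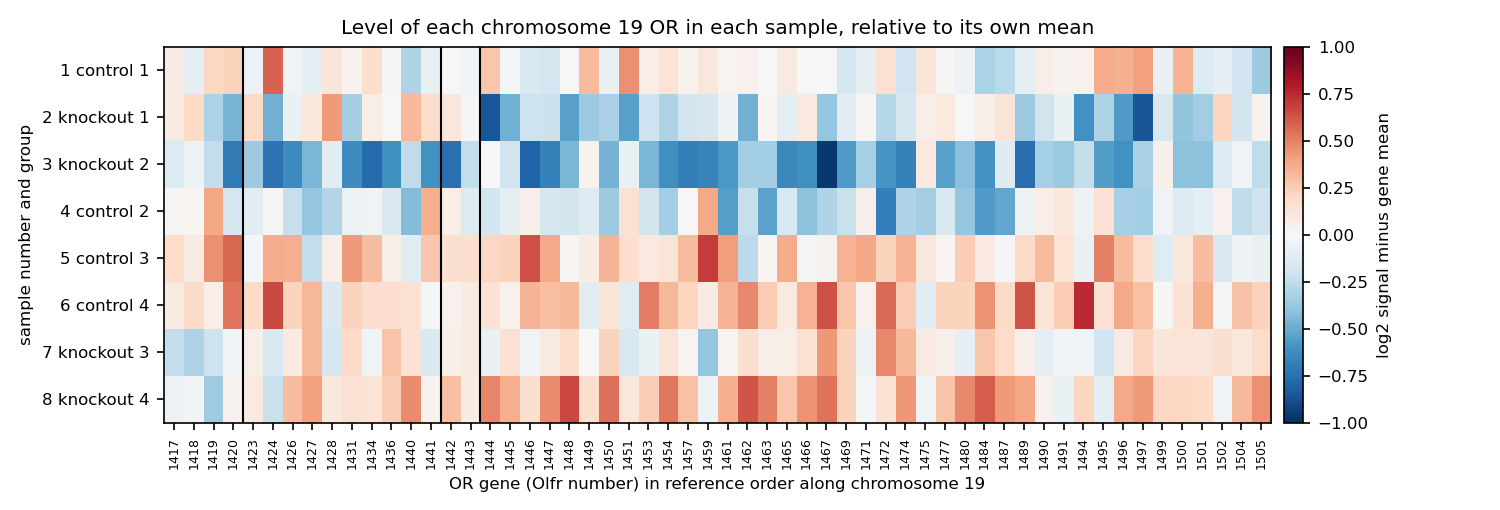
Log2 signal of each chromosome 19 OR (columns, in reference order, with lines between the 4 runs) in each sample (rows, by sample number), as the difference from the mean of that gene over the 8 samples (colour). Knockout replicate 2 is the lowest sample for 35 of 56 members, and most members are higher in samples 5 to 8 than in samples 1 to 4.

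The rows whose pattern was most like that of each of the 4 genes were looked for among all tested rows, by Pearson r over the 8 samples. For Olfr1419 they were Ablim1, an actin-binding protein gene (r = 0.988), Ero1b, an oxidase of the endoplasmic reticulum (0.987), and Abhd5 (0.983). For Olfr1424 they were Sfxn4 (0.969), 1700025G04Rik (0.967) and the vomeronasal receptor V1ra8 (0.967). The nearest to Olfr1459 were Olfr1368 (0.976), Rnf182 (0.974) and Gabbr2, a subunit of the GABA-B receptor (0.970). Uxs1 (0.988), Elovl2 (0.980) and Cd274 (0.974) were nearest to Olfr1495. Each was lower in the knockout, by differences from -0.14 for 1700025G04Rik to -0.92 for Olfr1368. That direction came with the choice, because these rows were picked for tracking genes already lower in the knockout. The r values are likewise the highest found in a search over all tested rows outside the members.

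The position of a sample in the numbering moved with the level of most members, and with that of most other OR rows. With group in the model, 22 members (39.3% of 56) were higher in samples 5 to 8 than in samples 1 to 4 at an unadjusted p under 0.01, beside 7.09% of all rows and 35.1% of other OR rows, and 0 were lower (3.84% and 0%). None passed at an adjusted p under 0.05 by limma, nor did any of the tested rows. The median shift was 0.39 for the members, from -0.07 for Olfr1428 to 0.83 for Olfr1467, and 0.36 for the other OR rows. For MOR266 it was 0.17, and for MOR202 it was 0.43. Whether the numbers follow a litter, a day or a processing batch is not given in the labels, and their part in the differences was not tested beyond these fits.

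**Figure D5:**
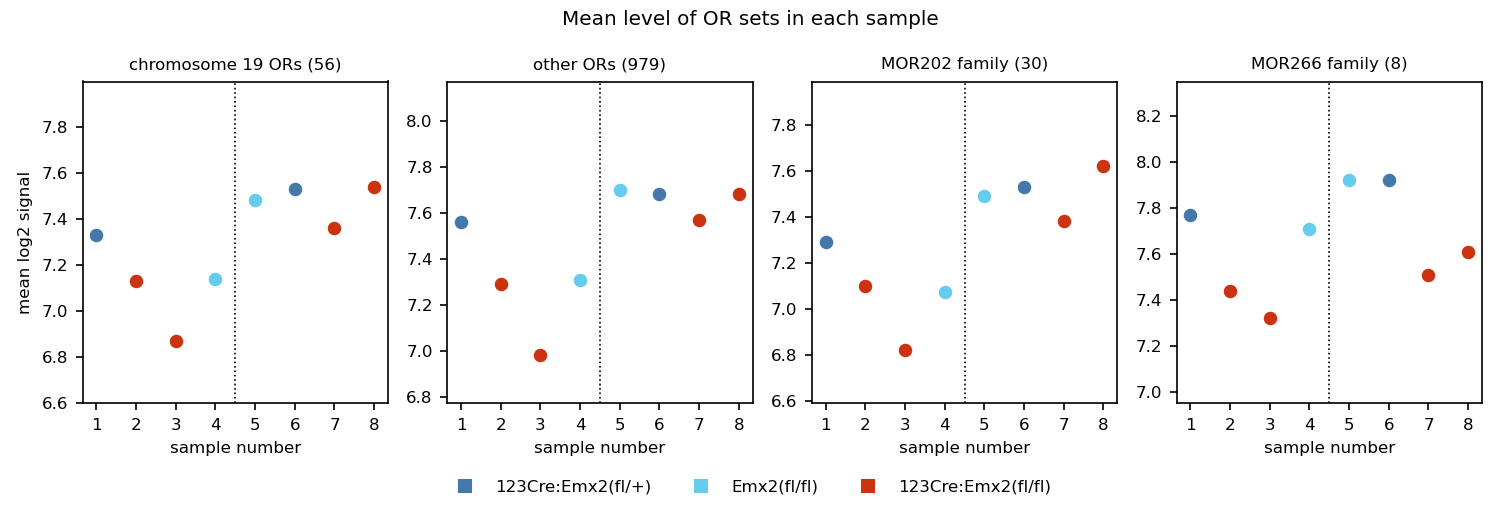
Mean log2 signal (vertical axis, equal spans) of the 56 chromosome 19 ORs, the 979 other OR rows, the 30 MOR202 and the 8 MOR266 members in each sample, by sample number (horizontal axis) and coloured by genotype, with a dotted line between samples 4 and 5. For MOR266 every knockout is below every control, and for the other 3 sets the groups overlap.

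Fitting the 2 sets of samples as a term left each difference as it was, and its SE was smaller for 47 members and larger for 9, among them Olfr1419. At an unadjusted p under 0.01, 8 members were then lower (1.91% of all rows, 11.3% of other OR rows) and 0 higher (0.726% and 1.43%). Olfr1420, Olfr1446, Olfr1490 and Olfr1501 joined the 4 named above, and again 0 passed at an adjusted p under 0.05 (0.47% of all rows and 1.84% of other OR rows did). Within samples 1 to 4 the members had a median difference of -0.27 with 43 below 0, and within samples 5 to 8 a median of -0.04 with 30 below 0. The other OR rows moved likewise, from -0.29 with 814 of 979 below 0 to -0.08 with 637 below 0. In both sets of samples 27 members were below 0 and 10 were above 0. The difference between these differences was tested as an interaction, and 0 members had an unadjusted p under 0.01 (0.41% of all rows, 1.43% of other OR rows). For the 4 named genes the within-set differences were similar, at -0.57 and -0.54 for Olfr1419, -0.89 and -0.70 for Olfr1424, -0.66 and -0.61 for Olfr1459, and -0.69 and -0.46 for Olfr1495.

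The 2 control genotypes were separated to see whether either alone carried a difference. Against 123Cre:Emx2(fl/+), 3 members were lower at an unadjusted p under 0.01 (0.79% of all rows, 1.63% of other OR rows): Olfr1419 at -0.41, Olfr1424 at -1.02 and Olfr1495 at -0.55. Against Emx2(fl/fl), 3 were lower (1.05% and 2.25%): Olfr1419 at -0.70, Olfr1459 at -0.86 and Olfr1495 at -0.61. In the latter contrast Olfr1419 passed over all rows (adjusted p = 0.042, limma), as did 0.137% of all rows and 0% of other OR rows. That call was lost with quantile normalization, without the dimmest 30% of rows, and in a fit that held the Emx2(fl/fl) controls alone. These contrasts share the knockout samples and rest on 2 control samples each. Between the control genotypes, 0 members had an unadjusted p under 0.01 (0.278% of all rows in either direction, 0.102% of other OR rows). The extremes of Emx2(fl/fl) minus 123Cre:Emx2(fl/+) were Olfr1459 at 0.45, Olfr1441 at 0.36 and Olfr1419 at 0.29, and Olfr1472 at -0.59, Olfr1462 at -0.51 and Olfr1494 at -0.45, with Olfr1467 and Olfr1424 also at -0.45.

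Other genes of chromosome 19 had differences centred on 0. The 8 genes that flank the OR runs differed by -0.06 (Pfpl) to 0.11 (Glyat and Lpxn), and 0 of 8 had an unadjusted p under 0.05. The Ms4a genes, which include chemoreceptors of a specialised set of OSNs, are also on this chromosome. Of 19 measured, 0 passed at an adjusted p under 0.05 and 1, Ms4a19 at 0.17, had an unadjusted p under 0.05, with a median of -0.02. Over all 648 rows of chromosome 19 that are not ORs, the median was -0.00, with 11 lower and 2 higher at an unadjusted p under 0.01. The only such row called at an adjusted p under 0.05 was that of Emx2. On other chromosomes the OR rows had medians of -0.29 (chromosome 10, 56 rows), -0.27 (chromosome 7), -0.23 (chromosome 9) and -0.19 (chromosome 2). The medians were -0.14 for chromosome 17, -0.09 for chromosome 16, -0.04 for chromosome 11 and -0.03 for chromosome 14. Leaving out knockout replicate 2 moved the difference of the means from -0.26 to -0.16 for chromosome 7. It went from -0.23 to -0.07 for chromosome 9 and from -0.16 to 0.02 for chromosome 2. The remaining chromosomes were not computed without that sample.

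Of 20 genes with a role in OR choice or OR trafficking, 1 had an unadjusted p under 0.01. That was Rtp2, a chaperone that carries ORs to the cell surface (-0.40, SE 0.078, adjusted p = 0.128). Lhx2 differed by -0.00, Ldb1, its cofactor, by 0.04, Ebf1 by -0.11 and Ebf3 by -0.13. Markers of cell types were summarised because they moved in part with the groups. For 18 mature OSN genes the mean level was 11.64 to 11.76 in controls and 11.48 to 11.62 in knockouts. Of these, 16 were below 0 (median -0.13) and 3 (S100a5, Rtp2 and Ano2) had an unadjusted p under 0.01. For 14 immature OSN genes it was 10.93 to 11.07 and 10.81 to 10.94, with 13 below 0 and 2 (Ablim1 and Gap43) at that threshold. All 9 respiratory ciliated cell markers were above 0 (9.99 to 10.16 against 10.02 to 10.47), and all 7 skeletal muscle markers likewise (7.21 to 7.45 against 7.37 to 7.55). The 7 olfactory bulb and brain markers were all below 0 (7.42 to 8.07 against 7.34 to 7.64). Of 6 basal and progenitor markers 3 were below 0 (10.04 to 10.20 against 9.93 to 10.49), as were 3 of 5 sustentacular markers (12.01 to 12.31 against 12.01 to 12.41) and 4 of 5 vomeronasal markers (10.75 to 10.92 against 10.56 to 10.92). None of these markers passed at an adjusted p under 0.05. With arrays centred on the mature OSN genes, the median of the members was 0.02, and Olfr1419, Olfr1424 and Olfr1495 kept an unadjusted p under 0.01. At that threshold 0.525% of all rows and 1.23% of other OR rows were lower. Higher were 0 members, 6.33% of all rows and 3.37% of other OR rows. This centring moved the median of all tested rows from 0.00 to 0.16. The part of the other cell types in the differences of the members was not tested.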

How the data were processed

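Total RNA of olfactory mucosa (8 samples) was hybridised to Affymetrix Mouse Gene ST arrays. The authors deposited log2 values per transcript cluster, a summary of the probes along a gene, in a table of 35557 rows. Affymetrix Expression Console is named in the submitters' processing notes, with a normalization not given in the sources used here. Values were used as deposited. Gene symbols came from the platform annotation, and gene order and windows from RefSeq (GRCm38.p6). Groups were taken from the labels. Precision is limited by the number of arrays.

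Knockouts and controls were compared with the moderated two-sided test of limma 3.58.1 under R 4.3.3 over all 23410 rows with a symbol, with Benjamini-Hochberg adjustment over these rows. Further fits had 3 genotypes, or the order of the sample numbers (1 to 4, 5 to 8) as a term. The script was tested on simulated data. Members, lists and tests were chosen with earlier results of these data known, so no list was given a p. Named were Emx2; members in the study's text; members at an unadjusted p under 0.01 and their neighbours; the 10 lowest and 10 highest differences; the largest SDs and control genotype differences; and genes of the lists of cell type markers, OR choice factors, Ms4a and flanking genes. Other named members were chosen after their values were seen. Protein identity was not analysed here. Alternatives were the methods' t-test, other normalizations and centrings, a filter on dim rows, all rows, rows with several symbols, array weights, either control genotype, either set of samples, and each sample left out.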

Additional observations from a re-analysis of the deposited data

Results flagged for a closer look

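Within groups of 4, a sample far from the others was looked for in 80 groups, and chance alone marks about 1 in 20 groups. Control replicate 4 read 7.84 for Olfr1494, where the other controls lay between 7.03 and 7.14. Control replicate 2 read 6.72 for Olfr1496, where the other controls lay between 7.37 and 7.43.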

How the results depend on the processing

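The count of members at an adjusted p under 0.05, 0 in the reported fit, was 3 with array weights and 0 to 1 when each sample was left out, the 1 being Olfr1419 without control replicate 4. Adjusted p over all alternatives ran from 0.0157 to 0.762 for Olfr1419. The count at an unadjusted p under 0.01, reported as 4, was 8 with the order of the sample numbers as a term. It was 2 within samples 5 to 8, and 3 to 5 when each sample was left out. With the order as a term, 1.91% of all rows and 11.3% of other OR rows were lower. Within samples 5 to 8, 1.41% and 6.03% were lower, and 1.33% and 4.49% higher. Without knockout replicate 2, 1.78% and 2.76% were lower, and 1.36% and 4.39% higher. Olfr1440 joined the count, as higher, with array weights and without knockout replicate 2. Olfr1459 dropped out without any one of knockout replicates 2 and 3 and control replicates 2 and 3, and Olfr1419, Olfr1424 and Olfr1495 remained without any 1 sample. Olfr1419 and Olfr1495 dropped out within samples 5 to 8 and on OR-centred arrays, and Olfr1424 against Emx2(fl/fl) controls alone. Olfr1459 also dropped out with the methods' t-test, on arrays centred on mature OSN genes or on ORs, and within either set of samples. It did so against 123Cre:Emx2(fl/+) controls alone as well, and kept an unadjusted p under 0.01 in 11 of 22 alternatives. Against 123Cre:Emx2(fl/+), the count of 3 was 1 without the dimmest 30% of rows, which leaves 24 members to test. Against Emx2(fl/fl), the count of 3 was 5 with quantile normalization. The 22 members higher in samples 5 to 8 were 7 without the dimmest 30% of rows. The median difference of -0.14 ran from -0.27 within samples 1 to 4 to 0.05 on OR-centred arrays, and turned positive also without knockout replicate 2 (0.03) and when centred on mature OSN genes (0.02). Apart from construction as stated, the cause was not tested. Over 34 named members and 730 values under alternatives, 704 kept direction or side of the unadjusted threshold, 10 moved past it, 16 fell short of it, and 0 reversed while past it. The sign changed in 59 values that never passed it. No paired analysis was possible because the titles number the samples 1 to 8, so that no number is shared between groups.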
